A study of Homo sapiens with 6 samples.

Results

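The heat-shock proteins and co-chaperones form the main protein-folding machinery of a cell, and 87 of the 30618 genes in the count data belong to this set. Members were chosen by gene symbol alone, as the protein-coding genes of the HSP70, HSP110, HSP90, small heat-shock protein, J-domain, BAG and TRiC families, the mitochondrial chaperonin, the HSP90 co-chaperones STIP1, AHSA1, CDC37 and PTGES3, and the heat-shock factors HSF1 and HSF2. HSPA5, DNAJB9, DNAJB11 and DNAJC3, all of the endoplasmic reticulum, were left out by name. The rule uses symbols and no measured value, but it was set with earlier results of these data known. The families are known mainly from the cytosol, but the symbols also take in 8 members whose proteins work in mitochondria and 8 that work in or on the endoplasmic reticulum. A filter on low counts was passed by 78 of the 87 members.

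All 6 RNA-seq libraries came from ARPE-19, a human cell line derived from retinal pigment epithelium, kept in 50 mM glucose. In 3 libraries (NC) the cells had received a non-targeting control siRNA, and in 3 libraries (siEIF1) an siRNA against EIF1, a translation initiation factor that takes part in start codon choice. The siRNA was carried in by lipid transfection, and the methods give a single siEIF1 sequence. Lanes of a blot in the supplementary material are numbered for more than 1 siEIF1, and which of them was sequenced is not given in the sources used here. No library of cells in normal glucose was analysed here, so each comparison is of siEIF1 with NC under high glucose.

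Molecular chaperones bind proteins that are not folded and keep them from clumping. HSP70 proteins bind and release such clients in a cycle driven by ATP, in which J-domain proteins deliver the client and start ATP hydrolysis, while HSP110 and BAG proteins act as nucleotide exchange factors that let the client go. HSP90 takes over clients such as kinases and hormone receptors from HSP70, TRiC encloses newly made actin and tubulin, and the small heat-shock proteins hold clients without ATP. Under heat or other proteotoxic stress, HSF1 binds heat-shock elements in promoters and raises the inducible members.

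EIF1 itself had an FPKM (fragments per kilobase of gene, scaled to the mapped fragments of the library) of 294, 281 and 281 in the NC libraries and 24.3, 22.7 and 23.5 in the siEIF1 libraries (log2 fold change -3.58, SE 0.055, adjusted p = 1.08e-13, by the quasi-likelihood test of edgeR, with p-values adjusted by the Benjamini-Hochberg method). Library totals ran from 26499929 to 28270778 counts in NC and from 29665044 to 31431479 in siEIF1, so the depths of the groups did not overlap, and the part of depth in the results was not tested. Of the retinal pigment epithelium markers, BEST1, OTX2, MITF and SERPINF1 had NC mean FPKM of 66.0, 17.8, 5.84 and 1.7. RLBP1, LRAT, PMEL and MERTK lay below 1, and TYR and TYRP1 did not pass the filter. RPE65 and TTR were not among the genes in the count data. RLBP1 rose from 0.27, 0.17 and 0.27 to 0.69, 0.62 and 0.73 FPKM (log2 fold change 1.55, SE 0.26, adjusted p = 0.00102) and was the 1 called of 8 tested. BEST1 had 70.8, 66.6 and 60.5 in NC and 62.1, 55.04 and 38.8 in siEIF1 and was not called (log2 fold change -0.32, SE 0.13, adjusted p = 0.106). Summed over the list, FPKM ran from 87.55 to 97.21 in NC and from 66.58 to 90.12 in siEIF1, and the part of these markers in the results was not tested. Most of this sum came from BEST1. Overlaps of the marker genes with other annotated genes were not searched. The strand setting of the counting is not given either, so marker levels, that of BEST1 included, are uncertain. Of 5 mesenchymal markers tested, 3 were higher, where 10.2% of all genes tested were. Their summed FPKM, mostly VIM, ran from 855.41 to 878.66 in NC and from 1034.25 to 1098.73 in siEIF1. Of 5 epithelial markers tested, 2 were higher, KRT8 and KRT18, which held most of the sum (430.69 to 454.51 in NC, 504.87 to 526.5 in siEIF1). KRT19 and TJP1 were not called. OCLN went the other way and was not called (log2 fold change -0.25, SE 0.12, adjusted p = 0.147), and CDH1 did not pass the filter. The part of both lists in the results was not tested. Blood, endothelial and neuronal markers summed to 0.85 to 0.99 FPKM in NC and 0.88 to 0.98 in siEIF1. PECAM1 and SNAP25 were at 0 in every NC library.

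In siEIF1 cells, 18 members of the set fell and 3 rose, at an adjusted p under 0.05 over all 16749 genes tested, the limit at which a gene is called here. The members that fell make up 23.1% of the 78 tested, where 10.4% of all genes tested fell, and the members that rose make up 3.85%, where 10.2% of all genes rose. With all libraries kept, these shares over all genes stand beside each count by family or list given below. Changes were small. Log2 fold changes (siEIF1 over NC, fitted on counts) ran from -0.70 for DNAJC9 to 0.37 for DNAJB5, with a median of -0.07 over the members and of 0.0033 over all genes tested. With the 2-fold limit of the study added, edgeR called 0 members in either direction, where 0.400% of all genes were called higher and 1.31% lower, and 0 members passed an unadjusted p of 0.05 with a 2-fold change, as with DESeq2 and limma at the adjusted p. Genes with a mean count of at least 500 were also taken alone, a limit chosen after the data were seen. There 16 of 63 members fell (25.4%, against 13.1% of 8028 genes) and 2 rose (3.17%, against 15.5%).

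In 38 of the 78 members tested (48.7%) the siEIF1 and NC libraries did not overlap in normalised counts scaled to the library total, with siEIF1 lower in 32 and higher in 6. Over all genes tested the groups were apart in 37.1%, with siEIF1 lower in 3173 and higher in 3045. The share depends on abundance. At a mean count of at least 500, siEIF1 was apart and lower in 28 and higher in 5 of 63 members. Over the 8028 genes at that count it was apart and lower in 1812 and higher in 1942. For single genes, groups are described as apart or overlapping by their FPKM. In 8 members, none of them called, the FPKM and the normalised counts differ in this. The count of members that fell depended on single libraries. Without NC replicate 1 it was 11 (7.1% of all genes fell in that fit), without NC replicate 3 it was 12 (7.32% of all genes), and without siEIF1 replicate 2 it was 10 (6.63% of all genes). Of the 21 members called, 11 passed the adjusted p in each of 14 alternative analyses, and 10 lost it when some library was left out. Of the 57 members not called, 48 had a 95% interval of the siEIF1 to NC ratio that lay between 0.8 and 1.25.

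**Figure D1:**
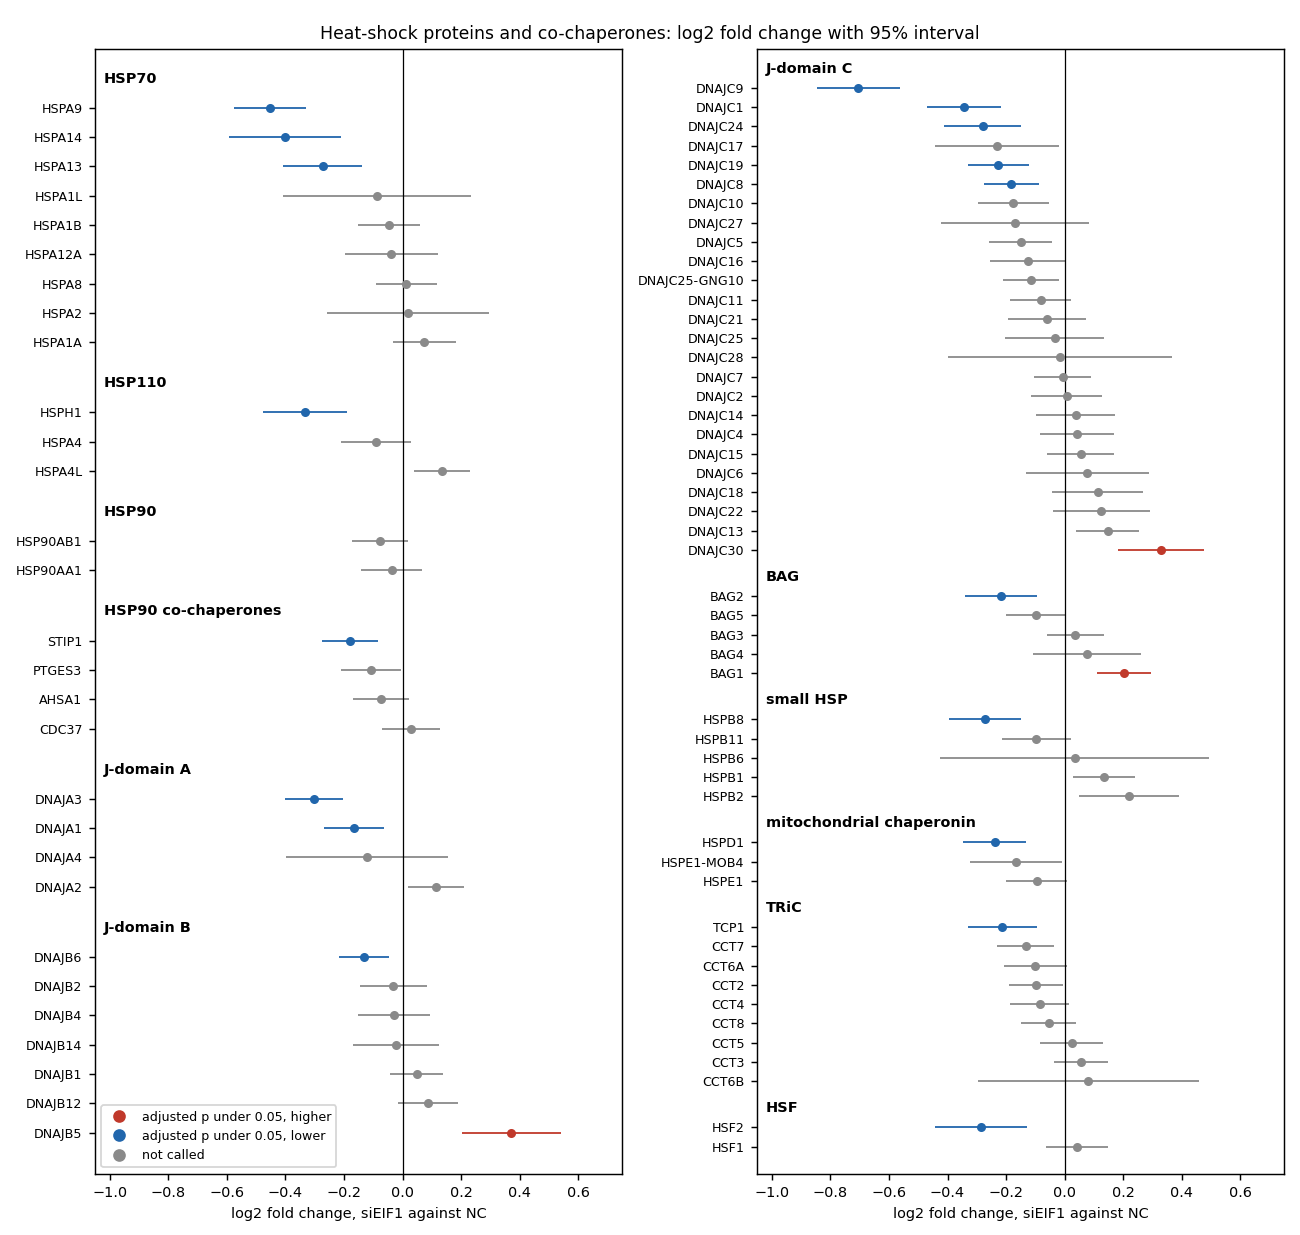
Log2 fold change (siEIF1 over NC, edgeR) of the 78 members tested, by family, with points for the estimate, bars for the 95% interval and colours for the call at an adjusted p under 0.05. The 18 blue points that fell reach -0.70 for DNAJC9, the 3 red points that rose reach 0.37 for DNAJB5, and HSPA8, HSPA1A, HSPA1B, HSP90AA1 and HSP90AB1 lie between -0.08 and 0.07.

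By summed FPKM the members together gave 2468 ± 75.1 in NC and 2334 ± 60.2 in siEIF1 (mean ± SD, n = 3 each), and HSP90 and TRiC held the largest shares of the NC sum, at 24.2% and 21.03%. At the top of the set stood HSP90AB1 (485), HSPA8 (301), HSPB1 (140.3), HSP90AA1 (111) and CCT4 (108), given as NC mean FPKM. Another 9 members had an NC mean of at least 50, while 17 lay under 1. The neighbours HSP90AA1 and CCT4 did not differ in level beyond their SD in NC (5.87 and 3.72). None of the 5 most abundant members was called.

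Among the 9 HSP70 genes tested, 3 fell and none rose (0 higher also at an unadjusted p under 0.05 and with DESeq2). Over all genes tested, 10.4% fell and 10.2% rose. The 3 HSP70 genes that fell do not belong to the main cytosolic pair. HSPA9 (mortalin, chr5:138553756-138575675) is the HSP70 of the mitochondrial matrix, where it pulls in and folds imported proteins. Its FPKM was 50.9, 43.7 and 47.5 in the NC libraries and 35.1, 31.1 and 36.2 in the siEIF1 libraries. All siEIF1 libraries lay below all NC libraries, and HSPA9 fell by 26.9% (log2 fold change -0.45, SE 0.062, adjusted p = 0.000217).

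HSPA14 (chr10:14838306-14871741), a ribosome-associated HSP70, had an FPKM of 4.29, 3.91 and 3.89 in the NC libraries and 3.34, 2.63 and 3.05 in the siEIF1 libraries (log2 fold change -0.40, SE 0.097, adjusted p = 0.0103). HSPA13 (chr21:14371115-14383484), a microsomal HSP70 relative, had 10.4, 9.4 and 10.8 in NC and 8.57, 7.34 and 9.03 in siEIF1 (log2 fold change -0.27, SE 0.069, adjusted p = 0.0131). In both genes the groups were apart, and siEIF1 replicate 2 was the lowest library. Without that library the adjusted p of HSPA14 rose to 0.0528, and HSPA13 lost its call without NC replicate 1, NC replicate 3 or siEIF1 replicate 2 and in both limma fits on FPKM (adjusted p of 0.0558 and 0.0526). HSPA14 overlaps other annotated genes on both strands, and the strand setting of the counting is not given in the sources used here.

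HSPA8, the constitutive HSC70 of the cytosol, had an FPKM of 317, 287 and 297 in the NC libraries and 302, 289 and 306 in the siEIF1 libraries. The groups overlapped, and the interval of the ratio was 0.939 to 1.08 (log2 fold change 0.01, SE 0.053, adjusted p = 0.897). Stress-inducible HSPA1A (chr6:31815543-31817946) gave 13.6, 14.3 and 15.04 in NC and 15.1, 14.2 and 15.2 in siEIF1 (log2 fold change 0.07, SE 0.055, adjusted p = 0.392, interval of the ratio 0.977 to 1.13). Its near-identical neighbour HSPA1B (chr6:31827738-31830254) gave 17.2, 17.7 and 16.6 in NC and 16.98, 15.8 and 16.4 in siEIF1, with an interval of 0.900 to 1.04. Reads of HSPA1A and HSPA1B can be split between the copies in counting, so their separate values are uncertain. The testis-linked HSPA1L and HSPA2 and the atypical HSPA12A lay under 1 FPKM and were not called, and HSPA6 and HSPA12B failed the filter. HSPA6, which is silent in most cells and strongly induced by heat, had counts of 1, 3 and 3 in NC and 6, 4 and 3 in siEIF1.

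The level of HSPA8 relative to HSPA9, as a ratio of FPKM, was 6.24, 6.57 and 6.26 in the NC libraries and 8.62, 9.29 and 8.45 in the siEIF1 libraries. The groups were apart, with means of 6.36 ± 0.185 and 8.79 ± 0.443 (SD, n = 3; p = 0.1 by a two-sided exact permutation test, which is as low as 3 against 3 libraries can reach). It is 1 of 6 ratios computed, none of which could pass 0.05 in this design, and its exact p was 0.15 after Benjamini-Hochberg adjustment over the 6.

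The HSP110 proteins, large relatives of HSP70, are its most potent nucleotide exchange factors in the cytosol. HSPH1 (chr13:31134973-31162388) fell by 20.6%, with an FPKM of 8.97, 7.59 and 8.09 in the NC libraries and 6.67, 5.63 and 7.01 in the siEIF1 libraries (log2 fold change -0.33, SE 0.073, adjusted p = 0.00561). Its groups were apart and its call held in all 14 alternatives. HSPA4 overlapped between groups, at 24.3 ± 2.13 against 22.5 ± 1.16 (mean FPKM ± SD, n = 3; interval of the ratio 0.864 to 1.02). HSPA4L, with FPKM of 3.95, 4.08 and 4.11 in NC and 4.29, 4.34 and 4.52 in siEIF1, was apart in the other direction and missed the threshold (log2 fold change 0.13, SE 0.049, adjusted p = 0.0701), which it passed narrowly with the replicate number as a block (adjusted p = 0.0499).

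Neither HSP90 gene was called, and 0 of the 2 passed an unadjusted p of 0.05 in edgeR or an adjusted p in DESeq2 or limma. HSP90AB1, the constitutive form, had FPKM of 499, 474 and 483 in the NC libraries and 452, 442 and 468 in the siEIF1 libraries. Its siEIF1 libraries all lay below its NC libraries, but the change was small (log2 fold change -0.08, SE 0.049, adjusted p = 0.313, interval of the ratio 0.888 to 1.01). HSP90AA1, the inducible form, overlapped between groups at 111 ± 5.87 against 107 ± 4.91 (interval 0.907 to 1.05). The ratio of HSP90AB1 to HSP90AA1 was 4.38 ± 0.114 in NC and 4.26 ± 0.128 in siEIF1 (two-sided exact permutation test, n = 3, p = 0.3, also after adjustment).

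Of the 4 HSP90 co-chaperones, STIP1 fell. STIP1 (HOP, chr11:64185272-64204543) bridges HSP70 and HSP90 so that clients can pass between them. Its FPKM was 28.6, 26.4 and 27.7 in the NC libraries and 23.8, 22.8 and 25.5 in the siEIF1 libraries, with the groups apart (log2 fold change -0.18, SE 0.049, adjusted p = 0.0193). The call was lost without NC replicate 1, NC replicate 3, siEIF1 replicate 1 or siEIF1 replicate 2, with adjusted p up to 0.0866. PTGES3 (p23), which stabilises the closed form of HSP90, had FPKM of 83.3 ± 4.16 against 76.3 ± 3.43, AHSA1, the activator of the HSP90 ATPase, 33.3 ± 1.54 against 31.2 ± 1.02, and CDC37, the kinase adaptor, 69.0 ± 3.43 against 69.4 ± 1.10 (mean ± SD, n = 3, NC against siEIF1). None of these was called, and their intervals of the ratio were 0.865 to 0.997, 0.890 to 1.02 and 0.953 to 1.09.

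Outside the set, 17 other HSP90 co-chaperones and adaptors were tested, with a median log2 fold change of -0.11. Of these, 4 fell and 1 rose, where 10.4% and 10.2% of all genes tested did. RPAP3 and RUVBL1, parts of the R2TP complex that helps HSP90 assemble large protein complexes, had log2 fold changes of -0.33 (adjusted p = 0.00492) and -0.17 (adjusted p = 0.0337). PPP5C, a phosphatase bound to HSP90, had -0.18 (adjusted p = 0.0156), and CACYBP -0.26 (adjusted p = 0.00737). UNC45A, the myosin chaperone, rose from 7.2, 7.23 and 6.96 FPKM in NC to 8.24, 8.44 and 8.46 (log2 fold change 0.25, SE 0.050, adjusted p = 0.00275). Without NC replicate 3, 2 of the 17 were lower. Of 8 further HSP70 partners, SGTB, a small adaptor that binds HSP70 through its TPR repeats, fell from 4.5, 3.93 and 4.29 to 2.45, 2.29 and 3.08 FPKM (log2 fold change -0.68, SE 0.091, adjusted p = 0.000163), a size close to that of DNAJC9, and the other 7 were not called.

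The J-domain proteins are the largest family, with 36 members tested in classes A, B and C, of which 8 fell and 2 rose. Of all genes tested, 10.4% fell and 10.2% rose. In class A, which is built like bacterial DnaJ, 2 of 4 fell. DNAJA3 (TID1, chr16:4425805-4456775), the J-domain partner of HSPA9 in mitochondria, had FPKM of 10.5, 9.92 and 10.1 in the NC libraries and 7.89, 7.81 and 8.71 in the siEIF1 libraries, with the groups apart (log2 fold change -0.30, SE 0.051, adjusted p = 0.000911). DNAJA1 (chr9:33025273-33039907), the main class A partner of HSPA8 in the cytosol, had 52.4, 47.02 and 48.2 in NC and 44.5, 42.2 and 42.9 in siEIF1 (log2 fold change -0.17, SE 0.052, adjusted p = 0.0367). DNAJA3 kept its call in all 14 alternatives, while DNAJA1 lost it without NC replicate 1, NC replicate 3, siEIF1 replicate 2 or siEIF1 replicate 3 (adjusted p up to 0.14). DNAJA2, the other abundant cytosolic form, had groups that overlapped in FPKM, at 13.7 ± 0.517 against 14.6 ± 0.371. In normalised counts its groups were apart with siEIF1 higher, and it was not called (log2 fold change 0.11, SE 0.049, adjusted p = 0.126). DNAJA4 lay under 1 FPKM and was not called.

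In class B, 1 of 7 members rose and 1 fell, where 10.2% and 10.4% of all genes tested did. DNAJB5 (chr9:34989641-34998900), a cytosolic relative of DNAJB1, rose by 29.4%, from FPKM of 1.47, 1.67 and 1.51 in the NC libraries to 1.98, 2.05 and 1.9 in the siEIF1 libraries (log2 fold change 0.37, SE 0.086, adjusted p = 0.00783). Its groups were apart and its call held in all 14 alternatives, at a low level. DNAJB1 (HSP40), the heat-inducible partner of HSPA1A, was at 15.7, 15.4 and 16.1 in the NC libraries and 15.5, 16.2 and 16.4 in the siEIF1 libraries, with overlapping groups and an interval of the ratio of 0.971 to 1.10. DNAJB6 (chr7:157335381-157417439), which holds back polyglutamine aggregation, fell by 8.66% with the groups apart, at 9.49 ± 0.165 against 8.55 ± 0.356 FPKM (log2 fold change -0.13, SE 0.044, adjusted p = 0.0496). That call stood just inside the threshold and was lost in 9 of the 14 alternatives, among them each NC library left out, siEIF1 replicate 1 or 2 left out and limma (adjusted p up to 0.163).

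In class C, whose members share little beyond the J domain, 5 of 25 tested fell and 1 rose. The shares over all genes tested were 10.4% lower and 10.2% higher. DNAJC9 (chr10:73183362-73247255), a J-domain protein of the nucleus that is also a chaperone of histones H3 and H4, fell most of the whole set. Its FPKM was 12.2, 11.9 and 10.3 in the NC libraries and 7.2, 6.63 and 6.98 in the siEIF1 libraries. The lowest NC library stood well above the highest siEIF1 library, and DNAJC9 fell by 38.6% (log2 fold change -0.70, SE 0.072, adjusted p = 1.92e-05, interval of the ratio 0.556 to 0.677). Its log2 fold change ranked 466 from the lowest of all 16749 genes tested, and over the 14 alternatives its log2 fold change stayed between -0.78 and -0.65. In bulk libraries, fewer cells of a type or stage that express a gene and less RNA per cell cannot be told apart. DNAJC9 overlaps FAM149B1 on the opposite strand, which is named for that overlap, had FPKM of 3.73 ± 0.118 against 3.95 ± 0.181 and was not called (log2 fold change 0.10, SE 0.060, adjusted p = 0.266).

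DNAJC1 (chr10:21756548-22003769), a J-domain protein of the endoplasmic reticulum membrane, had FPKM of 11.1, 9.76 and 10.5 in the NC libraries and 7.91, 7.86 and 8.61 in the siEIF1 libraries (log2 fold change -0.34, SE 0.065, adjusted p = 0.00219). DNAJC24 (chr11:31369840-31432835), which acts in making diphthamide on elongation factor 2, had 2.31, 2.07 and 2.21 in NC and 1.75, 1.74 and 1.86 in siEIF1 (log2 fold change -0.28, SE 0.067, adjusted p = 0.00944). DNAJC8 (chr1:28199456-28233029), associated with splicing factors, had 36.9, 34.6 and 37.5 in NC and 31.04, 31.8 and 31.9 in siEIF1 (log2 fold change -0.18, SE 0.048, adjusted p = 0.0154). All had their groups apart, and of these DNAJC8 lost its call, without NC replicate 3 (adjusted p = 0.0803). DNAJC5, the cysteine string protein of vesicles, was at 12.3 ± 0.311 against 10.9 ± 0.972 and missed the threshold (log2 fold change -0.15, SE 0.055, adjusted p = 0.0711), but passed it without siEIF1 replicate 3 (adjusted p = 0.00989) and with the block (adjusted p = 0.0289). DNAJC7, which recycles clients between HSP70 and HSP90, was at 6.29 ± 0.284 against 6.18 ± 0.169, with an interval of 0.931 to 1.07. The 19 class C members not called had log2 fold changes from -0.23 to 0.15.

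**Figure D2:**
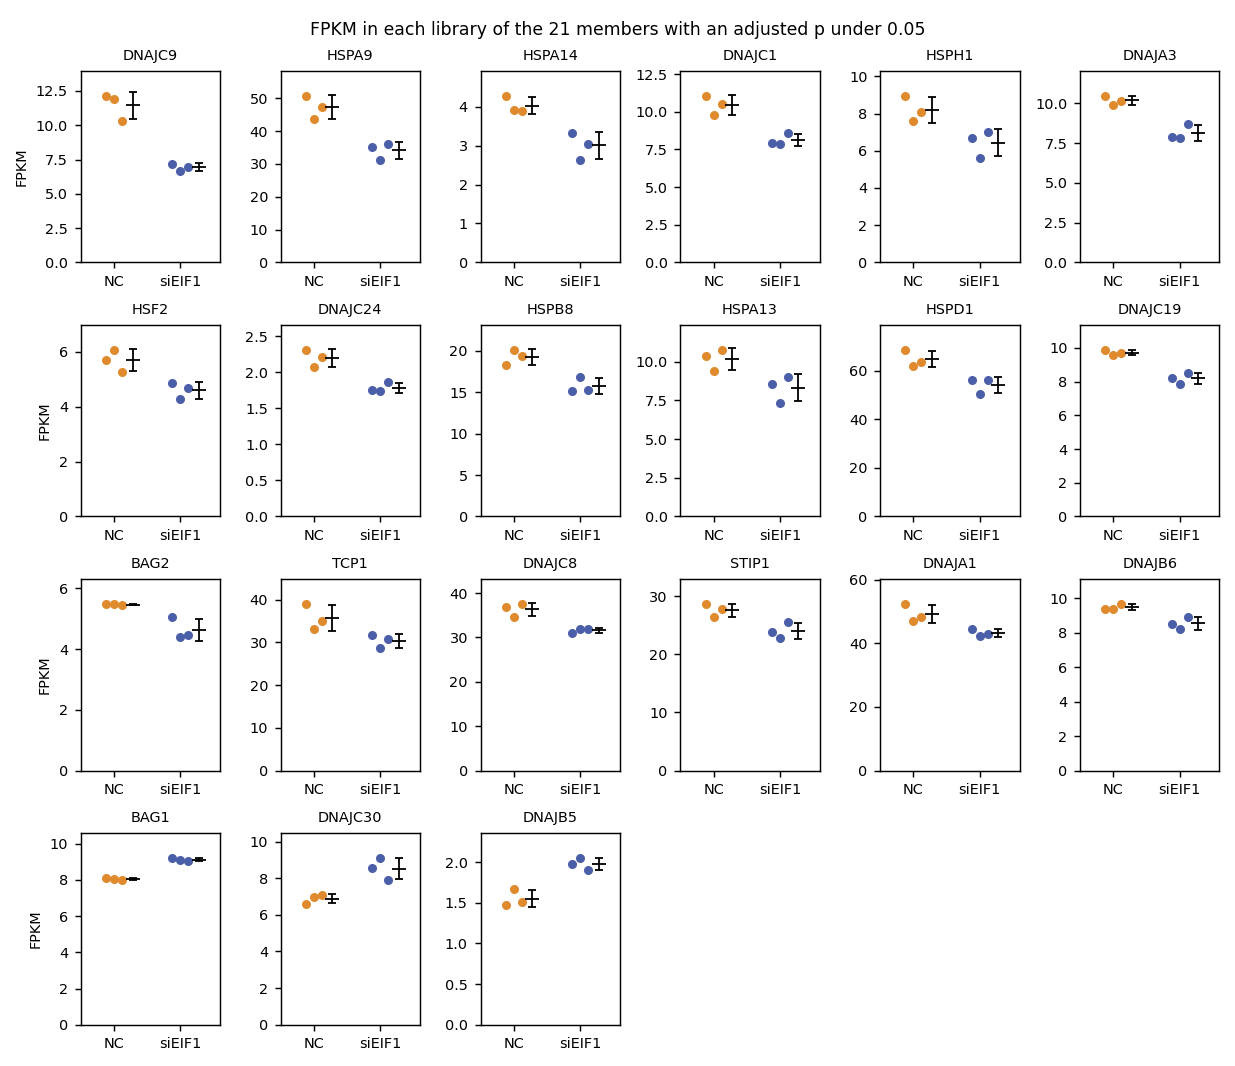
FPKM in each of the 3 NC (orange) and 3 siEIF1 (blue) libraries for the 21 members with an adjusted p under 0.05, with black bars for the mean and SD and axes that start at 0. The groups are apart in all 21 panels, with DNAJC9 at 11.5 ± 0.990 against 6.94 ± 0.287, and siEIF1 lies above NC in BAG1, DNAJC30 and DNAJB5.

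The BAG proteins bind the ATPase domain of HSP70 and release its client, and among the 5 of them BAG1 rose and BAG2 fell. BAG1 (chr9:33247820-33264720), which links HSP70 to the proteasome, had FPKM of 8.09, 8.06 and 7.99 in the NC libraries and 9.2, 9.1 and 9.06 in the siEIF1 libraries (log2 fold change 0.20, SE 0.048, adjusted p = 0.0088). BAG2 (chr6:57172326-57189833), which blocks the HSP70-bound ubiquitin ligase STUB1, had 5.48, 5.49 and 5.44 in NC and 5.06, 4.4 and 4.47 in siEIF1 (log2 fold change -0.22, SE 0.062, adjusted p = 0.0255). In both genes the groups were apart and the NC libraries lay close together. The ratio of BAG1 to BAG2 was 1.47 ± 0.0045 in NC and 1.97 ± 0.134 in siEIF1 (SD, n = 3; p = 0.1 by the same exact permutation test, again its minimum, and 0.15 adjusted over the 6 ratios). BAG1 lost its call without NC replicate 3 (adjusted p = 0.0546) and BAG2 in 6 of 14 alternatives, which were limma on log2(FPKM + 1) and 5 of the 6 fits with a library left out. BAG2 overlaps RAB23 on the opposite strand, which is named for that overlap and fell (log2 fold change -0.50, SE 0.085, adjusted p = 0.00106). Without a stated strand setting, BAG2 counts may hold RAB23 reads, so the BAG2 change and the ratio to BAG2 are uncertain. BAG3, the heat-inducible partner of HSPB8, was at 22.1, 22.4 and 21.5 in the NC libraries and 22.9, 21.4 and 22.6 in the siEIF1 libraries, and its interval of the ratio was 0.959 to 1.10. BAG4 (2.87 ± 0.245 against 2.99 ± 0.427) and BAG5 (7.28 ± 0.0954 against 6.70 ± 0.0721) were not called either.

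Of the 5 small heat-shock proteins tested, HSPB8 fell. HSPB8 (chr12:119171555-119224855) works with BAG3 to send damaged proteins to autophagy. Its FPKM was 18.3, 20.1 and 19.4 in the NC libraries and 15.1, 16.8 and 15.2 in the siEIF1 libraries, with the groups apart (log2 fold change -0.27, SE 0.063, adjusted p = 0.0078), and its call held in all 14 alternatives. HSPB1 (HSP27), which also binds actin filaments, was the most abundant of the family, with FPKM of 133, 144 and 143 in NC and 157, 153 and 145 in siEIF1. In FPKM its groups were narrowly apart with siEIF1 higher, in normalised counts they overlapped, and it missed the threshold (log2 fold change 0.13, SE 0.055, adjusted p = 0.103), passing it without siEIF1 replicate 3 (adjusted p = 0.0183) and with the block (adjusted p = 0.0488).

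HSPB2, best known from muscle, had 14.2, 15.7 and 14.1 against 16.2, 18.4 and 15.9 FPKM, with siEIF1 higher and the groups apart, though they overlapped in normalised counts. It was not called (log2 fold change 0.22, SE 0.088, adjusted p = 0.0975) and passed with the block (adjusted p = 0.0364). It overlaps CRYAB on the opposite strand. CRYAB, the alpha-B crystallin and itself a small heat-shock protein outside the set, rose from 32.9, 35.8 and 36.6 to 39.8, 43.6 and 37.9 FPKM (log2 fold change 0.23, SE 0.066, adjusted p = 0.0252). That call was lost without any 1 of the NC libraries, without siEIF1 replicate 2 and with limma on log2(FPKM + 1). Without a stated strand setting, reads of HSPB2 and CRYAB cannot be told apart with certainty. HSPB11, a part of the intraflagellar transport machinery, was at 7.05 ± 0.101 against 6.51 ± 0.243 and HSPB6 at 0.487 ± 0.0551 against 0.490 ± 0.0265, neither called. HSPB3, HSPB9 and the readthrough gene HSPB2-C11orf52 failed the filter.

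Of the 8 members that work in mitochondria, 4 fell and 1 rose, with a median log2 fold change of -0.16. The shares over all genes tested were 10.4% lower and 10.2% higher. The counts of 4 and 1 were the same in each of the 6 fits that left out a library. In those fits 6.63% to 10.4% of all genes fell. Beside HSPA9 and DNAJA3, the 2 others that fell were HSPD1 and DNAJC19. HSPD1 (HSP60, chr2:197486584-197516737) forms the barrel of the mitochondrial chaperonin and HSPE1 (HSP10) its lid, and both genes are read from a shared promoter in opposite directions. HSPD1 had FPKM of 68.6, 62.05 and 63.6 in the NC libraries and 56.1, 50.3 and 56.04 in the siEIF1 libraries, with the groups apart (log2 fold change -0.24, SE 0.055, adjusted p = 0.0078).

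HSPE1 had FPKM of 60.5, 55.05 and 57.8 in NC and 54.4, 54.1 and 51.5 in siEIF1. The groups were apart in FPKM but overlapped in normalised counts, and the change missed the threshold (log2 fold change -0.09, SE 0.053, adjusted p = 0.241). The ratio of HSPE1 to HSPD1 was 0.892 ± 0.0138 in NC and 0.988 ± 0.0793 in siEIF1 (SD, n = 3; p = 0.1 by the same exact permutation test, again its minimum, and 0.15 adjusted over the 6 ratios). HSPE1-MOB4, a readthrough gene that shares exons with HSPE1, was at 14.2 ± 1.05 against 12.5 ± 0.774 and was not called. HSPE1, HSPE1-MOB4 and HSPD1 overlap in the annotation, so their counts are uncertain to the extent that reads were shared.

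DNAJC19 (chr3:180983697-180989774), which drives HSPA9 at the import channel of the inner membrane, had FPKM of 9.89, 9.58 and 9.71 in the NC libraries and 8.24, 7.85 and 8.5 in the siEIF1 libraries (log2 fold change -0.23, SE 0.053, adjusted p = 0.00857). DNAJC30 (chr7:73680918-73683453), an inner membrane J-domain protein tied to the respiratory chain, went the other way, with 6.6, 7.0 and 7.08 in NC and 8.58, 9.1 and 7.91 in siEIF1 (log2 fold change 0.33, SE 0.075, adjusted p = 0.00732). Both had their groups apart and kept their calls in all 14 alternatives, as did HSPA9, DNAJA3 and HSPD1. The remaining 2 mitochondrial J-domain members were not called.

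Among 8 mitochondrial chaperones and partners outside the set, 3 fell and none rose (0 also at an unadjusted p under 0.05 and with DESeq2 or limma). The share that fell over all genes tested was 10.4%. GRPEL1 and GRPEL2, the nucleotide exchange factors of HSPA9, had FPKM of 10.1, 9.01 and 9.57 in the NC libraries and 8.15, 7.71 and 7.72 in the siEIF1 libraries for GRPEL1 (log2 fold change -0.26, SE 0.059, adjusted p = 0.00685) and of 4.31 ± 0.200 against 3.55 ± 0.393 for GRPEL2 (log2 fold change -0.26, SE 0.077, adjusted p = 0.0282). LONP1, the matrix protease, was at 27.5 ± 0.586 against 24.2 ± 1.51 (log2 fold change -0.17, SE 0.047, adjusted p = 0.0224). These calls rested on single libraries, since 1 of the 8 was lower without NC replicate 1, NC replicate 3 or siEIF1 replicate 2, and 2 without siEIF1 replicate 1. TRAP1, the mitochondrial HSP90, was not called, at 21.8 ± 0.653 against 21.5 ± 0.770 with an interval of the ratio of 0.934 to 1.06; it is named after its values were seen.

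**Figure D3:**
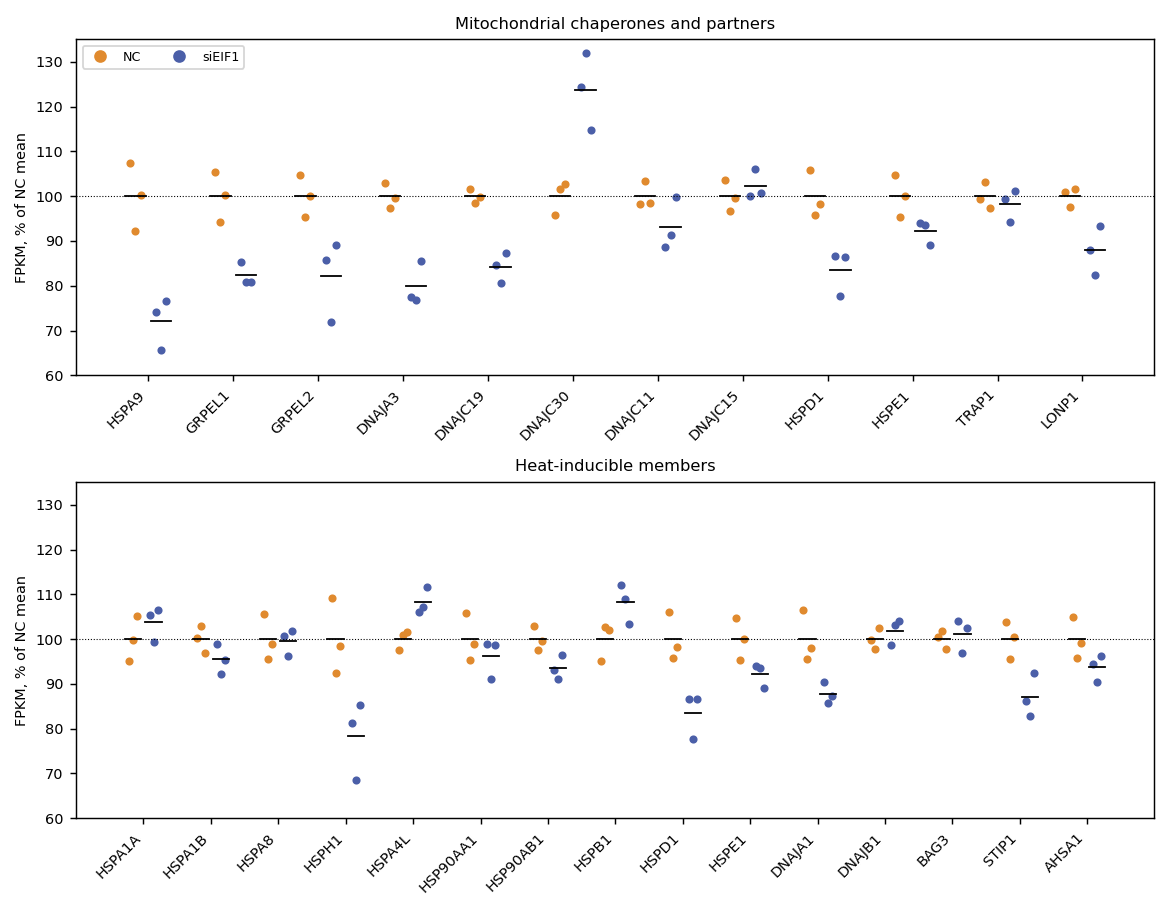
FPKM of each library as a percent of the gene's NC mean, for mitochondrial chaperones and their partners (upper panel) and the heat-inducible members (lower panel), with 3 NC (orange) and 3 siEIF1 (blue) points per gene and black lines for the means. HSPA9 and DNAJA3 sit below their NC libraries in every siEIF1 library while DNAJC30 sits above, and HSPA1A, HSPA8, DNAJB1 and BAG3 scatter around 100%.

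TRiC, the cytosolic chaperonin, is a double ring of 8 different subunits present in equal number. In NC their FPKM ran from 35.7 for TCP1 to 108.3 for CCT4, a 3.03-fold range, and in siEIF1 the range was 3.32-fold. Of the 8, 6 had a negative log2 fold change, with a median of -0.09, and TCP1 was called. Over all 9 TRiC genes tested, CCT6B included, the median moved from -0.0858 to -0.0468 without NC replicate 1. TCP1 (chr6:159778498-159789703), the alpha subunit, had FPKM of 38.98, 33.2 and 34.9 in the NC libraries and 31.7, 28.6 and 30.8 in the siEIF1 libraries, with the groups apart (log2 fold change -0.21, SE 0.060, adjusted p = 0.0228). TCP1 lost its call without NC replicate 1 (adjusted p = 0.0937), without siEIF1 replicate 2 (adjusted p = 0.105) and with limma on FPKM, and its gene overlaps ACAT2 on the opposite strand.

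The siEIF1 libraries also lay below all NC libraries in CCT7 (76.8 ± 3.36 against 69.1 ± 2.87, log2 fold change -0.13, SE 0.050, adjusted p = 0.0776), CCT2 (50.7 ± 1.55 against 46.7 ± 1.38, log2 fold change -0.10, SE 0.047, adjusted p = 0.165) and CCT8 (74.3 ± 3.27 against 70.5 ± 1.26, log2 fold change -0.06, SE 0.049, adjusted p = 0.481), which missed the threshold. CCT7 passed it with the block (adjusted p = 0.0336). CCT4 (108 ± 3.72 against 101 ± 5.06), CCT6A (58.3 ± 3.57 against 53.7 ± 2.38), CCT5 (36.5 ± 2.37 against 36.6 ± 1.66) and CCT3 (77.9 ± 1.31 against 79.8 ± 1.49) overlapped between groups. CCT3 and CCT5 had positive log2 fold changes of 0.06 and 0.02. The testis-linked CCT6B lay under 1 FPKM. Of 10 prefoldin subunits and other TRiC partners outside the set, PFDN2 fell from 118, 93.2 and 104 to 77.98, 73.1 and 80.7 FPKM (log2 fold change -0.42, SE 0.072, adjusted p = 0.00105), and the other 9 were not called.

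**Figure D4:**
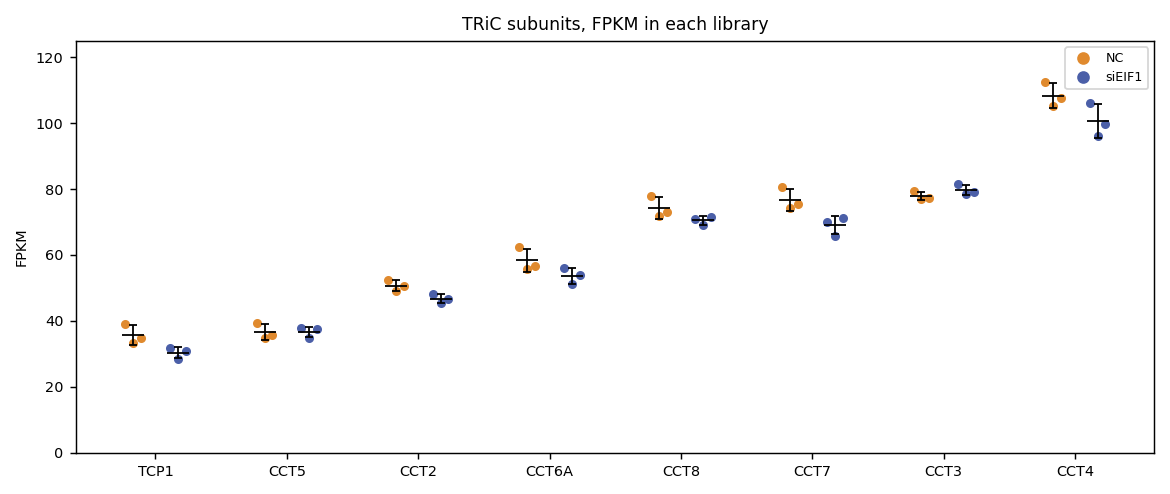
FPKM of the 8 TRiC subunits in the 3 NC (orange) and 3 siEIF1 (blue) libraries, ordered by NC level, with black bars for the mean and SD and an axis that starts at 0. NC means climb from 35.7 for TCP1 to 108.3 for CCT4, and the order of the subunits spans far more than the shift between groups within any subunit.

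Of the heat-shock factors, HSF1, the main heat-responsive factor, had FPKM of 13.96, 14.5 and 14.2 in the NC libraries and 15.3, 13.1 and 14.9 in the siEIF1 libraries, with overlapping groups and an interval of the ratio of 0.957 to 1.11. HSF2 (chr6:122399551-122433119), which pairs with HSF1 on heat-shock elements and is prominent in development, fell from 5.7, 6.07 and 5.27 to 4.86, 4.26 and 4.69 with the groups apart (log2 fold change -0.28, SE 0.080, adjusted p = 0.0223). HSF2 lost its call without NC replicate 1, NC replicate 2 or siEIF1 replicate 2 (adjusted p up to 0.0979). Among 5 related genes tested outside the set, 3 fell and CRYAB rose, where 10.4% and 10.2% of all genes tested did. The count that fell was 1 without NC replicate 1, NC replicate 3 or siEIF1 replicate 2. In those fits 7.1%, 7.32% and 6.63% of all genes fell. SERPINH1 (HSP47), the collagen chaperone of the endoplasmic reticulum, had FPKM of 27.6, 27.8 and 28.3 in the NC libraries and 18.01, 17.04 and 17.03 in the siEIF1 libraries (log2 fold change -0.66, SE 0.046, adjusted p = 8.97e-07). HSBP1, which binds the trimer domain of HSF1, had a log2 fold change of -0.20 (adjusted p = 0.0209), and HSBP1L1 of -0.19 (adjusted p = 0.0418).

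Of 16 members listed here as heat-inducible, 15 were tested. The list also holds HSPA8 and HSP90AB1, described above as constitutive. HSPH1, HSPD1, DNAJA1 and STIP1 fell and none rose, while 2 were higher at an unadjusted p under 0.05 (HSPA4L and HSPB1) and DESeq2 and limma each called 0 higher. The 4 of 15 that fell (26.7%) stand beside 10.4% of all genes tested. The count that fell was 2 without NC replicate 1, NC replicate 3 or siEIF1 replicate 2. Without siEIF1 replicate 3, 1 inducible member, HSPB1, passed as higher, and with the replicate number as a block 2 did, HSPA4L and HSPB1. The 11 not called had approximate 95% intervals of the ratio between 0.871 and 1.18, and the median log2 fold change over the 15 was -0.05.

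Heat-shock elements are built from units of GAA and its reverse complement TTC in alternation. The 250 bases before the RefSeq transcription start (GRCh38.p14) were searched on both strands for 3 units, GAANNTTCNNGAA or TTCNNGAANNTTC, and for 2 units, GAANNTTC or TTCNNGAA, where N is any base and a run of 3 units also holds 2. A RefSeq promoter was found for 69 of the 78 members tested. Of these, 2 (2.90%), HSPA8 and DNAJB6, held 3 units, against 32 of the promoters of 11225 genes tested (0.285%) and 0.441% of all 35116 promoters. At least 2 units stood in 13 of the 69 (18.8%), in 8.39% of the genes tested and in 11.6% of all promoters. Among the 15 inducible members tested it was 5 (33.3%).

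These windows show the 3-unit elements and the 2-unit elements of inducible or called members that the preceding results turn on, on the gene's own strand, with the element in capitals.
HSPA8 chr11:123062346-123062374 (reverse strand): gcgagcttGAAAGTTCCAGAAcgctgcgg
HSPA8 chr11:123062171-123062199 (reverse strand): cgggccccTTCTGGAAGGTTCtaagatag
DNAJB6 chr7:157336865-157336893 (forward strand): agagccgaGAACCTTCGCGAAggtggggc
HSPA1A chr6:31815429-31815452 (forward strand): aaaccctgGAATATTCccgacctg
HSPA1B chr6:31827625-31827648 (forward strand): aacccctgGAATATTCccgacctg
HSPB1 chr7:76302483-76302506 (forward strand): taacgagaGAAGGTTCcagatgag
DNAJA1 chr9:33025067-33025090 (forward strand): gggctccaGAAGATTCcacgagcg
HSPB8 chr12:119178835-119178858 (forward strand): tcacctccGAATATTCctgtgaca
BAG2 chr6:57172194-57172217 (forward strand): accgatagGAACCTTCgcgtgggg
TCP1 chr6:159789818-159789841 (reverse strand): tttgaggcGAAGGTTCaacctctt

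HSPA1A and HSPA1B carried the same 2-unit element, GAATATTC, and so did HSPB8 and HSPA1L. For HSPA1A and HSPA1L, on opposite strands, it is the same stretch of the genome (chr6:31815429-31815452), counted for both. Of the genes with 3 units, HSPA8 was not called and DNAJB6 fell at the edge of the threshold. Of the 13 members with at least 2 units, 5 fell (DNAJA1, DNAJB6, HSPB8, BAG2 and TCP1) and 8 were not called. Of all members tested 23.1% fell, and of all genes tested 10.4%. The calls of DNAJA1, DNAJB6, BAG2 and TCP1 were each lost in several alternatives. A link between the elements and the changes was not tested. A match to these letters describes the sequence and is not evidence that a factor binds there.

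Of the 8 members that work in or on the endoplasmic reticulum, HSPA13 and DNAJC1 fell and none rose (0 also at an unadjusted p under 0.05 and with DESeq2 or limma). The shares over all genes tested were 10.4% lower and 10.2% higher. With a library left out, 6.63% to 10.4% of all genes fell. HSPA13 lost its call as described, so that 1 of the 8 was lower without NC replicate 1, NC replicate 3 or siEIF1 replicate 2. Without NC replicate 2, siEIF1 replicate 1 or siEIF1 replicate 3 it was 3, the third being DNAJC10, a disulfide reductase of this compartment, which is named after its values were seen. DNAJC10 missed the threshold with all libraries (log2 fold change -0.18, SE 0.062, adjusted p = 0.0623) and passed it without the filter on low counts (adjusted p = 0.0198) and with the block (adjusted p = 0.00752). Of the 4 chaperones of this compartment left out by name, HSPA5 (BiP) was called, with FPKM of 152, 117 and 128 in the NC libraries and 108, 96.96 and 114 in the siEIF1 libraries and the groups apart (log2 fold change -0.30, SE 0.081, adjusted p = 0.0199). NC replicate 1 was its highest library, and HSPA5 was not called without that library, without siEIF1 replicate 2 or with limma on log2(FPKM + 1).

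The readthrough gene DNAJC25-GNG10 took in counts from 1619 to 1818 per library, while GNG10 within it had from 0 to 2, and its values (FPKM 35.6 ± 1.17 against 32.4 ± 0.312, log2 fold change -0.12, SE 0.049, adjusted p = 0.118) are uncertain for that reason. It is named after its values were seen. Of all 87 members, 53 overlap another annotated gene in GENCODE release 44 (GRCh38), among them 12 of the 21 called. The 9 members that failed the filter, HSPA6, HSPA12B, DNAJB7, DNAJB13, DNAJC12, DNAJC5B, HSPB3, HSPB9 and HSPB2-C11orf52, had at most 8 counts in any library, and a change in them was not detectable at this depth.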

How the data were processed

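RNA-seq of 6 ARPE-19 libraries was used, 3 NC and 3 siEIF1, grouped by their sample titles. The authors trimmed the reads with FASTX-Toolkit, aligned them to GRCh38 with HISAT2 (also named in the submitters' processing notes) and deposited counts of uniquely mapped reads per gene that had not been normalised. FPKM values, made by the authors and deposited beside the counts, are scaled for gene length and mapped fragments and rounded, and served here for levels and ratios. The counting program, its strand setting and the annotation release are not given in the sources used here, so overlapping or near-identical genes are uncertain.

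The counts, which summed to 26499929 to 31431479 per library, were filtered with filterByExpr, normalised by TMM and tested over all 16749 genes with edgeR 4.0.16 in R 4.3.3 (quasi-likelihood test, Benjamini-Hochberg adjustment, NC against siEIF1, no covariate). The standard error (SE) came from the F statistic, and 95% intervals of the ratio were taken as 1.96 SE on either side. These intervals are approximate and narrower than the edgeR test would give. Those of PTGES3 (0.865 to 0.997) and CCT2 (0.876 to 0.995) excluded 1 at unadjusted edgeR p-values of 0.0613 and 0.0554. Ratios of FPKM were compared by exact permutation tests in scipy 1.17.1. The methods describe the replicates as independent, so the p-values measure the spread between these cultures. Coordinates and overlaps came from GENCODE release 44 (GRCh38) and promoter sequences from RefSeq (GRCh38.p14).

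Members and gene lists were chosen with earlier results of these data known, and no list was given a test of its own. Every tested member could be named in all families but J-domain B and C, where DNAJB1, DNAJB6, DNAJC5, DNAJC7 and the members past an adjusted p of 0.05 (at most 8 in each direction) were named. Of the other lists, at most 4 members past that limit were named. Alternatives were RLE and upper-quartile normalization, DESeq2 1.42.0, no filter or at least 10 counts per library, limma 3.58.1 on log2(FPKM + 1) and log2(FPKM + 0.1), the replicate number as a block, and leaving out each library. A planned search of protein motifs was not made. Splicing was not analysed here.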

Additional observations from a re-analysis of the deposited data

How the results depend on the processing

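None of the 21 called members changed direction under the 14 alternatives, and the count of members lower stayed between 15 and 21 in those that kept all libraries. The replicate number as a block gave 7 members higher and 21 lower, where 12.8% and 12.7% of all genes were called. The numbers were not taken to pair the libraries, since the correlations of same-numbered deviations were 0.149, 0.0946 and 0.128, although 6 of 6 libraries correlated best with their own number. With each library left out in turn, members lower ran from 10 to 18 and members higher from 2 to 4. Medians of the log2 fold change over a family then ran from -0.0786 to -0.0242 for HSP70, -0.1329 to -0.015 for HSP110, -0.0804 to -0.023 for HSP90, -0.1165 to -0.0493 for the HSP90 co-chaperones, -0.121 to -0.0468 for TRiC, -0.2302 to -0.0791 for J-domain A, -0.2096 to -0.1046 for the mitochondrial chaperonin, -0.1626 to -0.0786 for the heat-shock factors, -0.0068 to 0.0509 for the BAG family, -0.0753 to 0.0552 for J-domain B, -0.103 to -0.0134 for J-domain C and -0.0194 to 0.1156 for the small heat-shock proteins. The small heat-shock protein median moved to -0.0375 without the filter, which adds 3 members of very low counts. The medians of J-domain B and the small heat-shock proteins thus changed sign, as did that of the BAG family, and the causes were not tested. With 3 libraries a group, changes of the size of DNAJB6 or DNAJA1 depend on single libraries. Depth limits the members under 1 FPKM, whose intervals are wide, and the 9 that failed the filter.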
